A study of Mus musculus with 12 samples.

Results

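A set of 9 genes that mark naive, resting memory and stem-like T cells were followed in pancreatic islet RNA of NOD mice given an antibody against CD3 or a control IgG. They were chosen by name: the transcription factor genes Tcf7, Lef1, Satb1, Klf2 and Id3, and the surface receptor genes Ccr7, S1pr1, Il7r and Slamf6. Of the 9 names, 8 had a row among the 13703 genes of the authors' deposited comparison table, and Lef1 was taken from the count table of 49315 genes. The 6 anti-CD3 libraries and the 6 IgG libraries came from islets of female NOD/ShiLtJ wild-type mice, a strain in which lymphocytes infiltrate the islets and destroy the beta cells. Mice with normal blood glucose entered at 9 weeks of age and were dosed once a week for 4 weeks, the antibody against CD3 at 2.5 mg/kg, and islets were isolated with collagenase 2 to 3 days after the last dose. Poly(A) RNA of whole islets was sequenced, so infiltrating lymphocytes, endothelium, stroma and exocrine tissue all contributed. Nothing in the labels ties a library to 1 mouse or to several, and p-values therefore reflect only how these libraries varied, which may be technical.

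A naive T cell circulates between blood and lymph node. CCR7 draws it towards the chemokines CCL19 and CCL21, S1PR1 lets it leave along a gradient of sphingosine 1-phosphate, and the alpha chain of the interleukin-7 receptor keeps it alive. The transcription factor KLF2 maintains S1pr1, while TCF-1 and LEF-1, encoded by Tcf7 and Lef1, hold the naive and stem-like programme and are lost as effector cells form. SATB1 organises chromatin in T cells, ID3 blocks E proteins, and SLAMF6 is a homophilic receptor used with TCF-1 to mark stem-like CD8 T cells, including those described in NOD autoimmunity. None of these genes is confined to T cells: endothelium uses S1pr1, Klf2 and Id3, and B cells and dendritic cells use Ccr7, so a bulk value sums several cell types.

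Total counts ran from 10994337 to 19284740 per anti-CD3 library and from 11891132 to 17628347 per IgG library. Islet markers were present, with a summed normalized count of 11 endocrine genes between 201251 and 356636 in anti-CD3 and between 219836 and 322697 in IgG, but 31 acinar genes took 71.4% to 75.2% of counts in anti-CD3 and 33.9% to 74.8% in IgG. IgG 5 was second lowest at 57.5%, and every library but IgG 5 and IgG 6 had at least 67.6%. IgG 6, at 33.9%, stood apart. Its summed normalized count was 4074 for 17 T cell core genes and 2666 for 12 B cell genes, against at most 1236 and 588 in anti-CD3 and at most 1220 and 579 in the other IgG libraries. Log2 fold changes and list medians that moved by over 1.5 times without IgG 6 are also given without it. Fewer T cells and less RNA per T cell cannot be told apart in such samples.

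The members differed widely in abundance. Normalized counts are the authors' counts divided by a size factor per library. Divided by the length of all annotated exons of a gene on GRCm38, Ccr7 was highest, with 343 ± 216 normalized counts per kb in anti-CD3 and 563 ± 557 in IgG (SD, n = 6 each here and in the next sentences). Id3 had 96.5 ± 33.5 per kb in anti-CD3 and 89.5 ± 49.3 in IgG, and S1pr1 had 59.2 ± 24.7 in anti-CD3 and 84.6 ± 67.7 in IgG. Klf2 had 33.0 ± 12.7 per kb in anti-CD3 and 30.6 ± 13.0 in IgG, and Tcf7 had 24.9 ± 9.29 in anti-CD3 and 30.3 ± 10.8 in IgG. Il7r had 14.3 ± 8.07 per kb in anti-CD3 and 23.2 ± 12.03 in IgG. Satb1 had 4.11 ± 1.71 per kb in anti-CD3 and 10.5 ± 11.5 in IgG, Slamf6 had 2.09 ± 1.90 in anti-CD3 and 2.64 ± 3.32 in IgG, and Lef1 was lowest with 0.515 ± 0.428 in anti-CD3 and 0.896 ± 1.08 in IgG. Neighbours in this order lay closer than the larger SD of the pair for Klf2 and Tcf7 and for Slamf6 and Lef1 in anti-CD3, and for every pair but Il7r and Satb1 in IgG. Cd3e, the T cell gene used below as a common measure, had 6.17 ± 4.87 per kb in anti-CD3 and 16.9 ± 10.9 in IgG. The order depends on the annotated exon length, which ran from 1791 bases for Id3 to 19027 bases for Satb1.

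On GRCm38, Tcf7 (ENSMUSG00000000782) lies on chromosome 11 from 52252371 to 52283014 and Ccr7 (ENSMUSG00000037944) on the same chromosome from 99144196 to 99155077. Klf2 (ENSMUSG00000055148) lies on chromosome 8 from 72319033 to 72321656, Id3 (ENSMUSG00000007872) on chromosome 4 from 136143497 to 136145755 and Satb1 (ENSMUSG00000023927) on chromosome 17 from 51736187 to 51833290. S1pr1 (ENSMUSG00000045092) and Lef1 (ENSMUSG00000027985) lie on chromosome 3, from 115710433 to 115715072 and from 131110471 to 131224356. Il7r (ENSMUSG00000003882) lies on chromosome 15 from 9505788 to 9530176 and Slamf6 (ENSMUSG00000015314) on chromosome 1 from 171917515 to 171953170. Each is annotated as protein-coding, and each value sums reads over the gene.

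RefSeq promoter sequence (GRCm38.p6) was held for 7 of the 9 genes. Those of 3 genes are shown, 1 for each pattern in the results that follow: Klf2 varied little between libraries, Satb1 varied widely and differed most between groups, and Slamf6 had the highest ratio difference to Cd3e. Each line covers 221 bases, from 250 to 30 bases before the start site, 5′ to 3′ on the gene's strand. Capitals mark GGGTG or its complement CACCC, the core of the element that KLF factors bind. The windows are chr8:72318812-72319032 on the plus strand for Klf2, chr17:51833320-51833540 on the minus strand for the first listed start of Satb1, and chr1:171917212-171917432 on the plus strand for Slamf6.
Klf2: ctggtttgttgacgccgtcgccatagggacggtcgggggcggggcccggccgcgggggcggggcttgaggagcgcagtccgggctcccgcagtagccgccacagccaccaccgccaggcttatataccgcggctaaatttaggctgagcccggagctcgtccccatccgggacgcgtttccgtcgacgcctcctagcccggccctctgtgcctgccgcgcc
Satb1: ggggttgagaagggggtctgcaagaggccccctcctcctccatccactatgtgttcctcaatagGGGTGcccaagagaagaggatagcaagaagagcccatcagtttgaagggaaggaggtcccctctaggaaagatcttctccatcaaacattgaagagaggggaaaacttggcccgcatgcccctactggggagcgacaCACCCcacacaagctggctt
Slamf6: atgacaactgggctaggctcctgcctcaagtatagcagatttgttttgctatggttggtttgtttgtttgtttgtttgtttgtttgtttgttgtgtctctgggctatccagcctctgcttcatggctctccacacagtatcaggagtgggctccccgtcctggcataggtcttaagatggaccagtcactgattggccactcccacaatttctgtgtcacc
The KLF core was found at 2 places in the Satb1 window, beginning 186 and 49 bases before the start, and in neither of the others. The 5 listed starts of Satb1 had 2, 0, 2, 2 and 1 such places. The first listed windows of Tcf7 and Id3, which varied about as little as Klf2, had 2 each. That of Lef1 had 3 and that of Il7r 0. The windows of Id3, of Il7r and of the Satb1 starts after the first overlap the annotated gene itself. The KLF core occurs on either strand in 47.4% of windows of this length over 27025 genes, so a match is common. The core CTTTGA of the TCF and LEF element, searched on both strands, was in none of the 3 windows shown and in 12.9% of all windows. The GC content was 71.5% for Klf2, 55.2% for Satb1 and 47.96% for Slamf6. These are matches of letters and were not tested as binding sites.

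The members differed in how far they varied between libraries. The ratio of the highest to the lowest library over all 12 was 3.26 for Tcf7, 3.58 for Klf2 and 3.73 for Id3. It was 8.51 for Il7r, 9.86 for S1pr1, 17.7 for Satb1 and 26.9 for Ccr7, and 16.7 for Cd3e. Slamf6 and Lef1 had a library at 0, so no such ratio exists. Likeness to marker sums was measured as the mean gap, over 12 libraries, between values centred on the mean of each gene or sum. The values were log2(normalized count + 1). Ccr7 lay 0.26 from the summed T cell core genes and 0.44 from the summed macrophage and dendritic cell genes. It lay 0.45 from the summed B cell genes and 0.73 from the summed endothelial genes. The T cell sum itself lay 0.27 from the macrophage and dendritic cell sum. Satb1 lay 0.40 from the summed macrophage and dendritic cell genes, 0.41 from the T cell sum and 0.55 from the endothelial sum. Il7r lay 0.36 from the macrophage and dendritic cell sum, 0.37 from the stromal sum, 0.39 from the T cell sum and 0.45 from the endothelial sum. S1pr1 lay 0.36 from the endothelial sum, 0.37 from the stromal sum and 0.42 from the T cell sum. Tcf7 lay 0.35 from the endothelial sum, 0.44 from the islet endocrine sum and 0.79 from the T cell sum. Klf2 lay 0.35, 0.48 and 0.86 from these 3 sums, and Id3 0.29, 0.48 and 0.72. Slamf6 lay 0.61 from the B cell sum and 0.76 from the T cell sum. These gaps are descriptions, and all of them include IgG 6. The T cell sum spanned 4.81, the endothelial sum 1.78 and the islet endocrine sum 0.83 on the log2 scale over the 12 libraries. A gene that varies little lies near any sum that varies little, so a small gap does not assign a gene to a cell type.

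**Figure D1:**
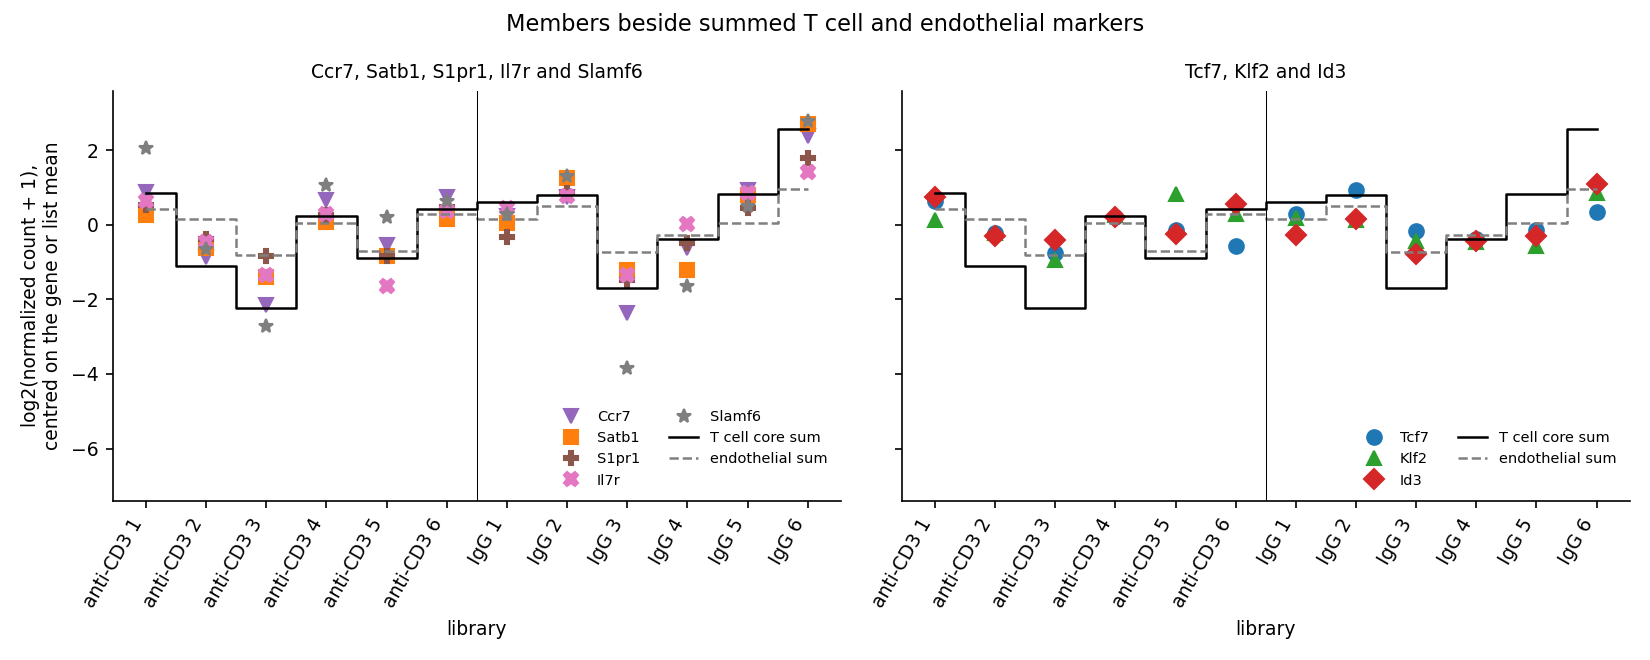
Members beside summed T cell core and endothelial marker genes in the 12 libraries. The vertical axis is log2(normalized count + 1) centred on the mean of each gene or sum. Points are genes, the solid line is the T cell sum and the dashed line the endothelial sum. Tcf7, Klf2 and Id3 vary less than the solid line, as the dashed line does, and stay closer to the dashed one. Ccr7 follows the solid one, with IgG 6 at the top.

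The genes nearest in pattern to each member were taken among 11861 genes. Ccr7 was nearest to Rftn1, a lipid raft protein gene of B cells, at a mean gap of 0.20, and to Gimap1 and Ncf1, a lymphocyte GTPase gene and a phagocyte oxidase subunit gene, both at 0.22. Slamf6 was nearest to Zap70 and Cd247, which encode the kinase and the zeta chain of T cell receptor signalling, at 0.39 and 0.43, with Sash3, a lymphocyte adaptor gene, between them at 0.39. Satb1 was nearest to Ehd3 (0.20), Camk4 (0.25) and Fnbp1 (0.26), S1pr1 to Dpysl3 (0.20), Pde4b (0.21) and the NF-kappaB gene Rel (0.22), and Il7r to the kinase gene Fes (0.22), the integrin gene Itga4 (0.24) and Runx2 (0.24). Tcf7 was nearest to Irak2 (0.19), Tubgcp2 (0.20) and Unk (0.22), Klf2 to Cep152 (0.19), Arid5a (0.19) and Syngr2 (0.21), and Id3 to Upp1 (0.15), Clmp (0.16) and the glycolytic gene Pkm (0.16). Of these 24 genes Zap70 and Cd247 are on the T cell core list, both for Slamf6, and the other 7 members had none. The median gap to the 11861 genes was 0.51 for Tcf7, 0.53 for Klf2, 0.55 for Id3 and 1.14 for Ccr7.

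Anti-CD3 was then compared with IgG to ask whether treatment changed the level of these genes in the islet. In the edgeR quasi-likelihood test over 13115 genes, 0 of the 8 tested members passed an adjusted p of 0.05, where 0.0762% of all genes were called higher and 0% lower. At an unadjusted edgeR p under 0.05, 1 member, Satb1, was lower, against 8.68% of all genes, and 0 were higher, against 9.68% of all genes. DESeq2 called 0 of the 8, where it called 2.81% of genes higher and 1.23% lower, and limma-voom called 0 of the 8, where it called 0.892% of genes higher and 0.137% lower. At an unadjusted DESeq2 p under 0.05, Satb1 again was the 1 member lower, against 9.93% of all genes, and 0 were higher, against 9.75%. The log2 fold change was negative for 6 of the 8 and for 55.2% of all genes, positive for 2 of the 8 and for 44.8% of all genes, and its median over the 8 was -0.48, against -0.05 over all tested genes. Without IgG 6 the median of the 8 was -0.04. The groups overlapped in normalized counts for all 8, whereas 0.648% of all genes lay wholly lower and 1.14% wholly higher in anti-CD3.

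Among the transcription factor genes, Tcf7 had between 40.1 and 106 normalized counts in anti-CD3 (median 60.4) and between 52.8 and 131 in IgG (median 72.8). The groups overlapped over most of their range, with anti-CD3 1 and IgG 2 highest. Its log2 fold change was -0.29 ± 0.27 (SE, 6 libraries per group; edgeR adjusted p = 0.573). It was -0.27 without IgG 6, -0.090 without IgG 2 and -0.47 without anti-CD3 1. Klf2 had between 27.9 and 98.0 in anti-CD3 (median 62.6) and between 36.6 and 100.04 in IgG (median 50.3), a difference of 0.09 ± 0.30 (SE; edgeR adjusted p = 0.893). Id3 had between 115 and 260 in anti-CD3 (median 154) and between 88.9 and 331 in IgG (median 127), a difference of 0.10 ± 0.31 (SE; edgeR adjusted p = 0.887). All 6 anti-CD3 libraries were above the lowest IgG library for Id3, and IgG 6 was above all of them. Without IgG 6, Klf2 was at 0.33 ± 0.28 and Id3 at 0.44 ± 0.23 (SE; edgeR adjusted p = 0.623 and 0.381). Both signs turned with another library: Klf2 was at -0.091 without anti-CD3 5, and Id3 at -0.050 without anti-CD3 1 and -0.024 without IgG 3.

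Satb1 showed the widest difference of the members. It had between 35.2 and 114 normalized counts in anti-CD3 (median 80.5) and between 40.5 and 622 in IgG (median 133). IgG 6, IgG 2 and IgG 5 lay above every anti-CD3 library, and IgG 3 and IgG 4 lay near the lowest. The log2 fold change was -1.37 ± 0.61 (SE; edgeR adjusted p = 0.261), and -0.58 ± 0.48 without IgG 6 (SE; edgeR adjusted p = 0.616). Lef1 had 24 counts over the 6 anti-CD3 libraries and 75 over the 6 IgG libraries, of which IgG 6 held 36 and IgG 2 held 27. It was too low to be kept for testing, and with no filter its log2 fold change was -0.82 ± 0.82 (SE; edgeR adjusted p = 0.580).

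Among the receptor genes, Ccr7 had between 138 and 1146 normalized counts in anti-CD3 (median 705) and between 119 and 3214 in IgG (median 887). Library 3 was lowest in each group, and IgG 6 stood far above the next IgG library, at 1177. Its log2 fold change was -0.72 ± 0.66 (SE, 6 libraries per group; edgeR adjusted p = 0.571), with -0.05 ± 0.64 when IgG 6 was left out. S1pr1 had between 101 and 265 in anti-CD3 (median 180) and between 64.2 and 633 in IgG (median 197), a difference of -0.53 ± 0.47 (SE; edgeR adjusted p = 0.559) and -0.04 without IgG 6. Il7r had between 22.7 and 114 in anti-CD3 (median 70.4) and between 28.1 and 193 in IgG (median 112), a difference of -0.72 ± 0.45 (SE; edgeR adjusted p = 0.405) and -0.48 without IgG 6. Slamf6 had between 1.21 and 59.6 in anti-CD3 (median 18.6) and between 0 and 97.7 in IgG (median 18.1), a difference of -0.43 ± 0.89 (SE; edgeR adjusted p = 0.819). It turned to 0.51 ± 0.83 without IgG 6. In the authors' deposited table the log2 fold changes of the 8 genes ran from -1.36 for Satb1 to 0.10 for Id3.

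**Figure D2:**
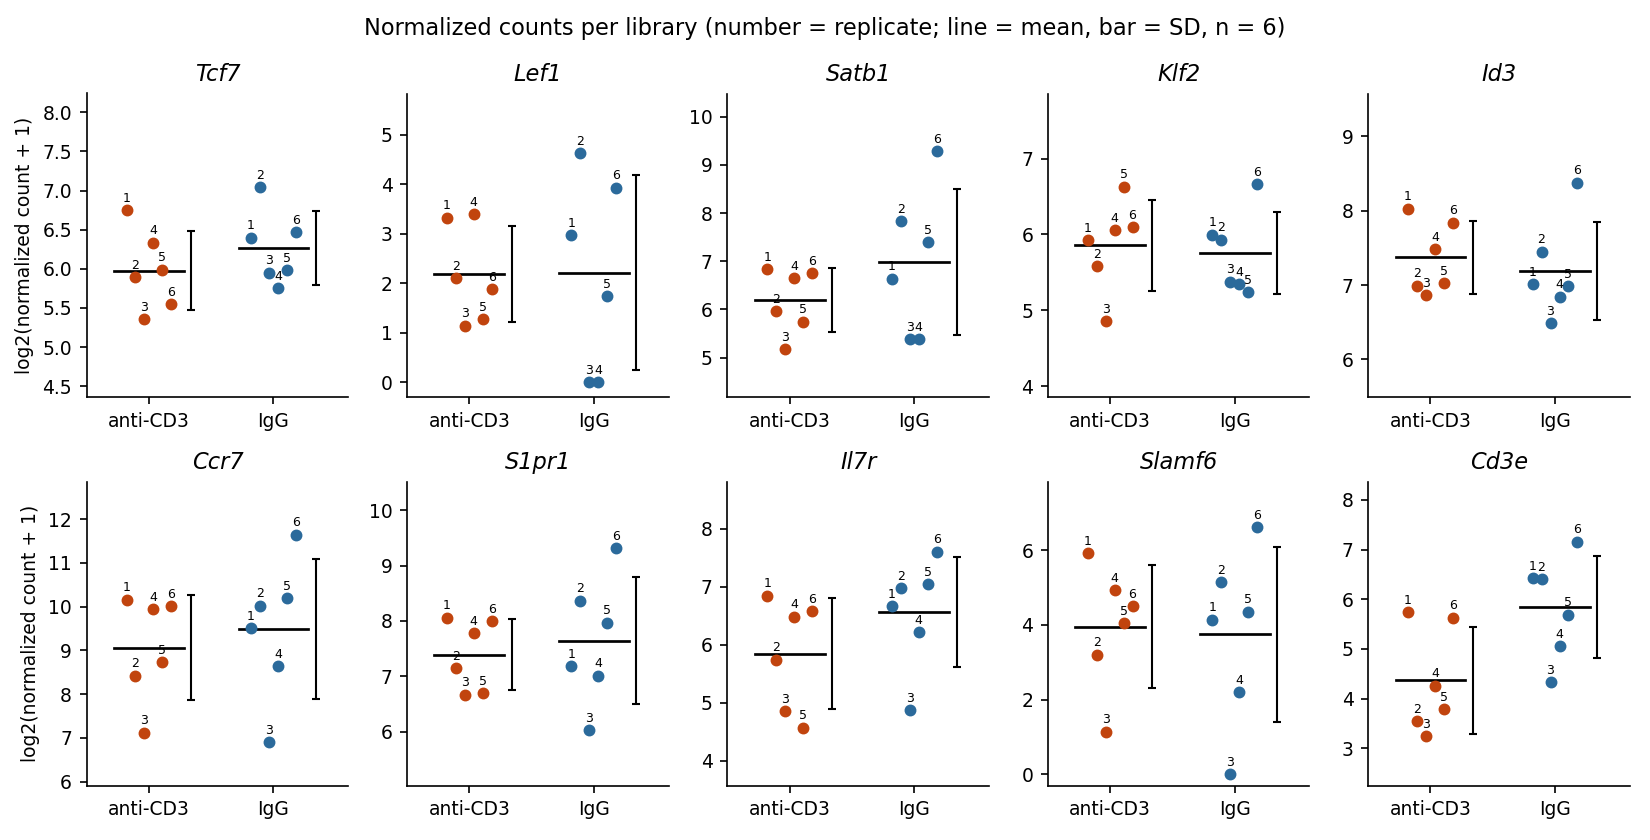
Normalized counts of the 9 genes and Cd3e per library, as log2(normalized count + 1) on the vertical axis, anti-CD3 in orange and IgG in blue. Points carry the replicate number, lines are means and bars SD (n = 6); the groups overlap in every panel, and IgG 6 is highest in 8 of the 10.

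The members were next set against Cd3e in the same library, to ask how much of each RNA was present per unit of T cell RNA. Cd3e encodes a chain of the complex that the antibody binds. It had between 8.50 and 52.3 normalized counts in anti-CD3 (median 15.5) and between 19.1 and 142 in IgG (median 67.2), with a log2 fold change of -1.51 ± 0.54 (SE, 6 libraries per group; edgeR adjusted p = 0.182). Anti-CD3 1 and anti-CD3 6 held 52.3 and 48.5, and the other 4 anti-CD3 libraries 8.50 to 18.2. These rest on few reads, 115 counts over the 6 anti-CD3 libraries and 674 over the 6 IgG libraries. The ratio was formed after adding 1 normalized count to both genes, which pulls the ratios of low genes towards 1.

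The ratio to Cd3e was higher in anti-CD3 for all 8 members, and for 99.7% of all tested genes. Id3 had 4.62 to 12.2 times the Cd3e value in anti-CD3 (median 9.40) and 1.503 to 4.47 times in IgG (median 2.39). S1pr1 had 4.99 to 12.1 times in anti-CD3 (median 9.10) and 1.69 to 4.85 times in IgG (median 3.88). For these 2 genes every anti-CD3 library lay above every IgG library, as for 1.19% of all genes. The differences of mean log2 ratio were 1.66 for Id3 and 1.22 for S1pr1, each with p = 0.00216 (exact permutation test, two-sided, n = 6 per group), the smallest that regrouping 6 against 6 libraries can give. Klf2 had 1.14 to 7.18 times the Cd3e value in anti-CD3 (median 3.26) and 0.706 to 2.06 times in IgG (median 0.736). Its difference was 1.58 (exact permutation p = 0.0108), and 4 anti-CD3 libraries lay above the highest IgG library.

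Tcf7 had 0.946 to 5.08 times the Cd3e value in anti-CD3 (median 4.26) and 0.617 to 3.07 times in IgG (median 1.39), a difference of 1.19 (exact permutation p = 0.0433). Anti-CD3 6 and anti-CD3 1, the libraries with most Cd3e in that group, had 0.946 and 2.02, and the other 4 lay between 4.20 and 5.08. With 1 library left out, the Tcf7 difference kept an exact permutation p under 0.05 in 3 of 12 cases, without anti-CD3 1, anti-CD3 6 or IgG 3. Ccr7 had 14.7 to 51.6 times in anti-CD3 (median 25.5) and 5.98 to 22.8 times in IgG (median 12.2), a difference of 1.05 (exact permutation p = 0.0260). Slamf6 had 0.233 to 1.59 times in anti-CD3 (median 0.962) and 0.0497 to 0.689 times in IgG (median 0.301), a difference of 1.69 (exact permutation p = 0.0325). Il7r differed by 0.76 (exact permutation p = 0.0390) and Satb1 by 0.68 (exact permutation p = 0.119), with 2.15 to 5.36 times in anti-CD3 and 1.16 to 4.35 times in IgG for Satb1. Lef1, with the few counts given above, differed by 1.45 (exact permutation p = 0.0433). These p-values are unadjusted over 9 genes.

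**Figure D3:**
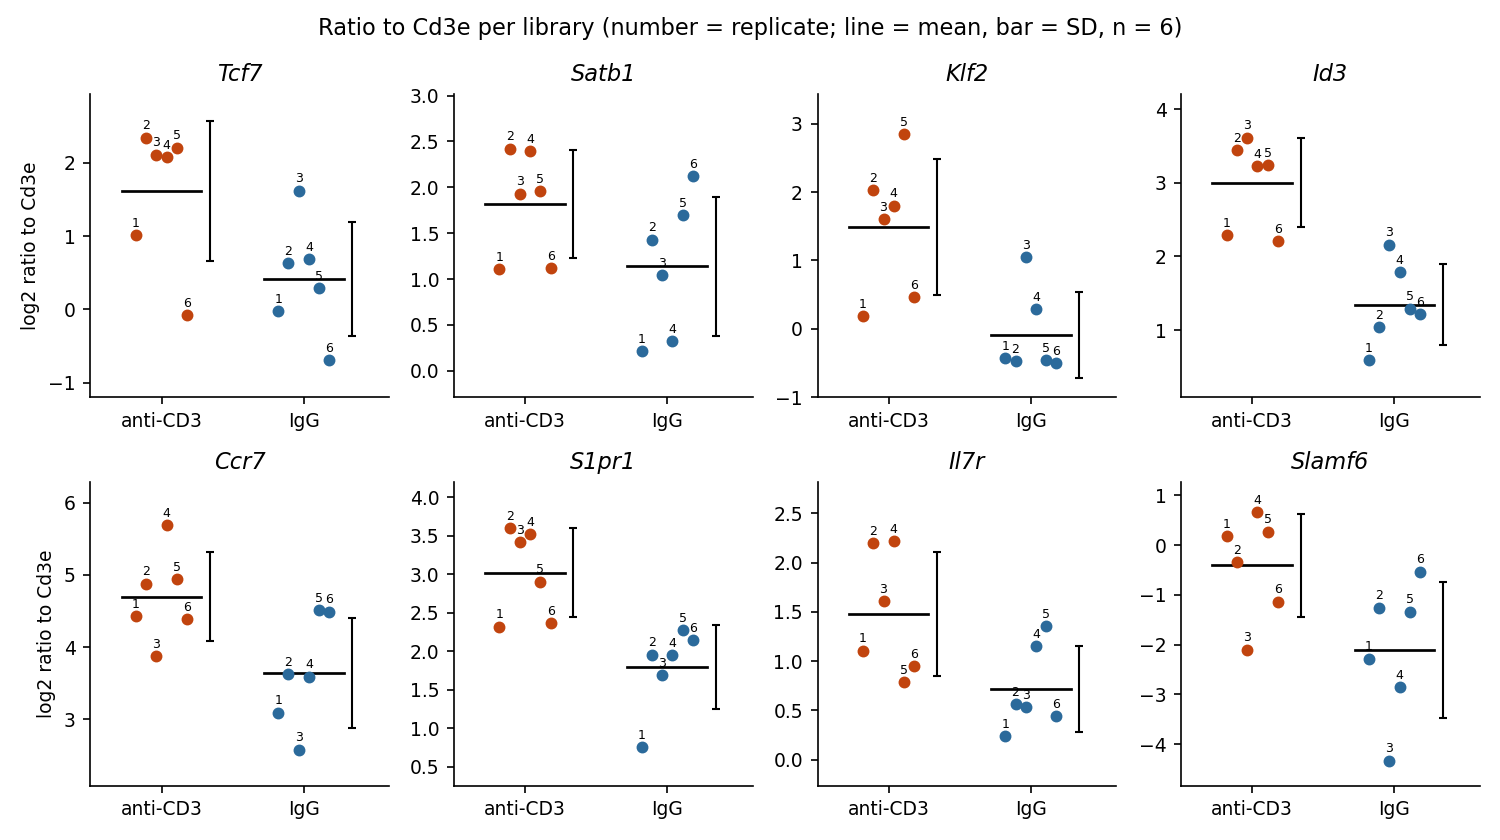
Log2 ratio of each member to Cd3e per library, after adding 1 normalized count to both, anti-CD3 in orange and IgG in blue. Points carry the replicate number, lines are means and bars SD (n = 6); Id3 and S1pr1 do not overlap between groups, and anti-CD3 1 and 6 are the lowest anti-CD3 libraries for Tcf7, Klf2, Id3, Satb1 and S1pr1.

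These ratios have to be read against all genes. An exact permutation p under 0.05 in the higher direction was reached by 7 of the 8 members and by 47.2% of all tested genes. The median difference was 1.21 over the 8 members, 1.44 over all 13114 tested genes other than Cd3e and 0.62 over the 16 other T cell core genes. Of those 16, 15 were above 0 and Cd8a was at -0.40. Satb1 lay above 4.64% of all tested genes in this difference, Il7r above 6.35%, Ccr7 above 17.3%, Tcf7 above 26.8% and S1pr1 above 29.3%, and Klf2, Id3 and Slamf6 lay above 64.5%, 71.6% and 74.4%. With limma over the whole table, 1 of the 8 members, Id3, passed (1.66 ± 0.67, SE; limma adjusted p = 0.0480) and so did 30.7% of all genes. Klf2 and Slamf6 were at limma adjusted p = 0.0525 and 0.0528. That count of 4027 genes rested on single libraries: it lay between 38 and 116 without anti-CD3 2, 3, 4 or 5 or IgG 1, 2, 5 or 6, and between 5735 and 10399 without anti-CD3 1 or 6 or IgG 3 or 4. Id3 passed in 4 of these 12 fits, with a limma adjusted p between 0.0131 and 0.137 over the 12. Those 4 were the fits without anti-CD3 1 or 6 or IgG 3 or 4, which called the most genes. Klf2 passed in the same 4, and Slamf6 and Tcf7 in 2 each. Because Cd3e is common to every ratio, these results share its error and are not independent of each other.

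Most of these differences depended on the gene in the denominator. Cd3e itself had a difference of -1.48 in mean log2 value (exact permutation p = 0.0368), which enters every ratio to it with the opposite sign. Against the sum of Cd3d, Cd3e and Cd3g, which had a difference of its own of -1.14 (exact permutation p = 0.184), 3 of the 8 members passed, Id3 (1.32), Ccr7 (0.72) and Slamf6 (1.36), where 4.4% of all genes did. Against Ptprc, the pan-leukocyte gene of CD45, 2 of the 8 passed, Ccr7 (0.59) and Slamf6 (1.22), where 1.23% of all genes did. Against Cd2, an adhesion receptor gene of lymphocytes and not of T cells alone, 1 of the 8 passed, Slamf6 (0.91), where 0.206% of all genes did. Id3, S1pr1 and Klf2 kept an exact permutation p under 0.05 against Cd3e without any 1 library. How many of all genes did so was not counted. Against Cd2 these 3 members were at 0.88, 0.45 and 0.80 (exact permutation p = 0.318, 0.530 and 0.396). Il7r and Satb1 were at -0.02 and -0.10 against Cd2.

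Slamf6 was the member whose ratio passed an unadjusted p of 0.05 in anti-CD3 under each of the 4 measures, with exact permutation p = 0.0325 against Cd3e, 0.0390 against the CD3 sum, 0.0433 against Cd2 and 0.0216 against Ptprc. It was singled out after its values were seen, and the p-values are 4 of 32 computed without adjustment. The call against Ptprc held when any 1 library was left out. Those against Cd3e, the CD3 sum and Cd2 held in 5, 5 and 3 of 12 omissions. The share of all genes that held in these omissions was not counted. Slamf6 had few reads, 105 counts over the 6 anti-CD3 libraries and 335 over the 6 IgG libraries. IgG 3 held 0 of them and IgG 4 held 3. With 0.1 in place of 1 normalized count added, the exact permutation p was 0.0584 against Cd3e, 0.0714 against the CD3 sum, 0.0455 against Cd2 and 0.0563 against Ptprc. Slamf6 is also expressed by B cells, whose summed markers ran from 32.8 to 588 in anti-CD3 and from 63.0 to 2666 in IgG, and their part in the ratio was not tested.

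**Figure D4:**
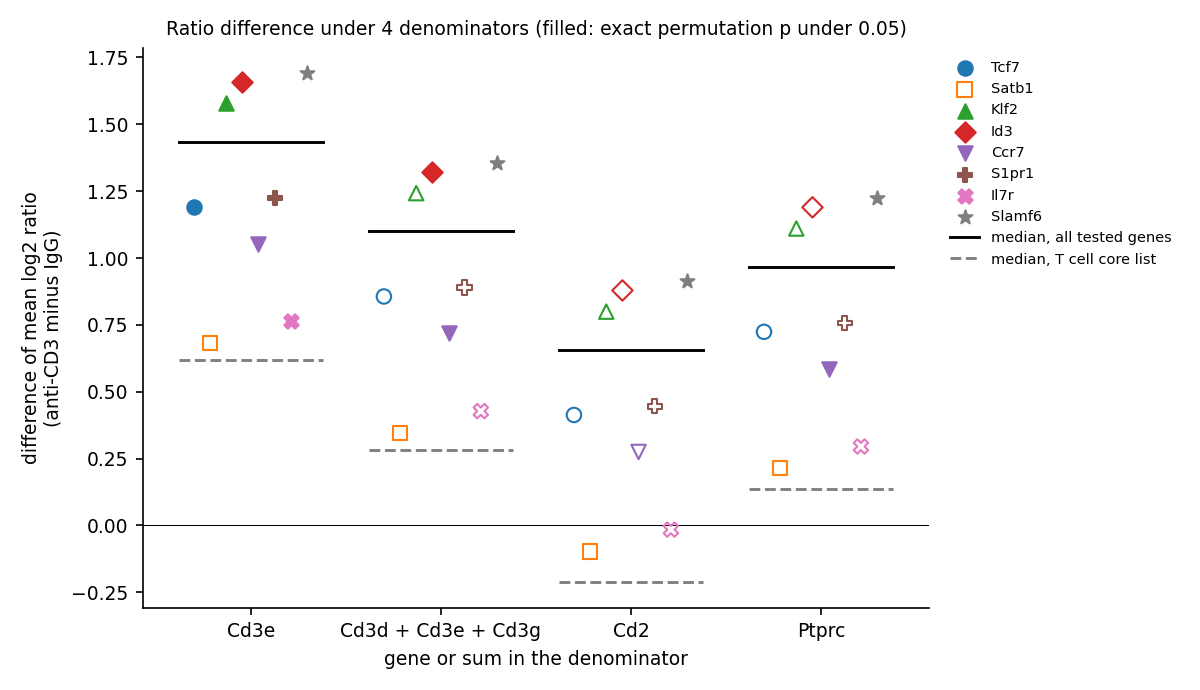
Difference of mean log2 ratio, anti-CD3 minus IgG, on the vertical axis for the 8 members against Cd3e, the sum of Cd3d, Cd3e and Cd3g, Cd2 and Ptprc. Filled symbols have an exact permutation p under 0.05, solid lines are the median over all tested genes and dashed lines the median over T cell core genes; the members' order is the same in every column, which moves as a whole with the denominator, and Slamf6 is filled in each.

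The genes around the members in their pathways were described from lists. In each list 0 genes passed edgeR over all genes. DESeq2 called 1 gene on the list of other naive, memory and stem-like genes, 2 on that of sphingosine 1-phosphate signalling, 2 on the stromal and 1 on the acinar list, and 0 on the others, where it called 2.81% of all genes higher and 1.23% lower. Foxo1 is on the first and the second of these lists and is counted in both. Of 26 other naive, memory and stem-like T cell genes 22 were tested, 19 with negative and 3 with positive values and a median of -0.61, or -0.15 without IgG 6, and 2 of the 22 were lower at an unadjusted edgeR p under 0.05, as were 8.68% of all genes. Foxo1, the transcription factor that drives Klf2 and Il7r in T cells and acts widely in other tissues, had between 165 and 228 normalized counts in anti-CD3 (median 187) and between 204 and 372 in IgG (median 301). The groups overlapped only through IgG 1, the lowest IgG library. Its log2 fold change was -0.61 ± 0.15 (SE; edgeR adjusted p = 0.0761; DESeq2 adjusted p = 0.0158) and -0.54 without IgG 6. Bach2, a repressor that preserves naive and memory states, was at -0.85 ± 0.37 (SE; edgeR adjusted p = 0.245).

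For the receptors' own pathways, 10 of 11 interleukin-7 receptor genes were tested, 8 with negative values and a median of -0.41, or -0.22 without IgG 6. Jak1, the kinase bound to the receptor, was at -0.43 ± 0.18 and Cish, a feedback inhibitor induced by STAT5, at 0.39 ± 0.18 (SE; edgeR adjusted p = 0.222 and 0.259). Il7 itself was too low to test, with 29 counts over the anti-CD3 and 95 over the IgG libraries. Of the genes of sphingosine 1-phosphate signalling and egress 12 of 13 were tested, 7 with negative values and a median of -0.26, or 0.0014 without IgG 6. Klf6, an early response gene of the KLF family, was at 0.68 ± 0.19 (SE; edgeR adjusted p = 0.102; DESeq2 adjusted p = 0.0250), with 1992 to 4189 normalized counts in anti-CD3 and 1556 to 2608 in IgG. Cd69, whose protein removes S1PR1 from the surface, had between 3.64 and 265 normalized counts in anti-CD3 and between 12.1 and 935 in IgG. Of the CCR7 ligands, Ccl19 had 6 counts over the anti-CD3 and 19 over the IgG libraries, and Ccl21a was listed at 0 in all 12, which is uncertain because it has near-identical copies among which reads can be shared. The 6 tested genes of the homing list were all negative, with a median of -1.20, or -0.28 without IgG 6. Itgal, the LFA-1 integrin chain gene, was at -1.37 ± 0.65 and Cxcr5, a follicle homing receptor gene, at -1.94 ± 0.92 (SE; edgeR adjusted p = 0.279 for both), and without IgG 6 they were at -0.80 and -0.38.

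Of 12 SLAM family and adaptor genes 8 were tested, all negative, with a median of -0.98, or -0.16 without IgG 6. Fyn, the kinase recruited by the SLAM adaptor SAP, was at -0.64 ± 0.30, and Ly9, the SLAM receptor gene next in p, at -1.57 ± 0.77 (SE; edgeR adjusted p = 0.270 and 0.298), and without IgG 6 they were at -0.27 and -0.56. Among partners of TCF-1 and LEF-1, 12 of 14 were tested, 9 negative, with a median of -0.11. The co-activator gene Bcl9 was at -0.60 ± 0.19 and the co-repressor gene Tle3 at -0.58 ± 0.20 (SE; edgeR adjusted p = 0.138 and 0.170). Of the other Id and E protein genes 4 of 5 were tested, with 2 above and 2 below 0 and a median of 0.09, or 0.20 without IgG 6. Tcf3, the E2A gene, was at -0.31 ± 0.22 and Id2 at 0.19 ± 0.23 (SE), with 0.46 for Id2 without IgG 6.

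Lists of other T cell states and other cells gave the setting of these values. The 17 T cell core genes were all negative, with a median of -1.24, or -0.35 without IgG 6, and 5 of the 17 were lower at an unadjusted edgeR p under 0.05, as were 8.68% of all genes. Beside Cd3e, Cd8a had the smallest p, at -1.59 ± 0.68 (SE; edgeR adjusted p = 0.245), or -1.05 without IgG 6. Of 23 effector and activation genes 16 were tested, 15 negative with a median of -0.88, or -0.14 without IgG 6 and 0.19 without IgG 5 and IgG 6. Among them Gzmk, a granzyme gene, was at -1.98 ± 0.85 (SE), or -1.27 without IgG 6, and Cd44, an adhesion receptor gene, at -0.70 ± 0.24 (SE). Of 10 exhaustion and inhibitory receptor genes 7 were tested, 6 negative with a median of -0.84, or -0.23 without IgG 6. Tigit was at -1.20 ± 0.60 and Lag3 at -1.31 ± 0.73 (SE), and without IgG 6 they were at -0.43 and -0.46. The 11 tested B cell genes were all negative, with a median of -1.43, or -0.08 without IgG 6, and so were the 11 tested macrophage and dendritic cell genes, with a median of -0.93, or -0.21 without it. Of 14 endothelial genes 13 were tested, 9 negative with a median of -0.17, or 0.06 without IgG 6, and their sum ran from 1662 to 3931 in anti-CD3 and from 1783 to 5697 in IgG. All 10 stromal genes were negative (median -0.999, and -0.69 without IgG 6), whereas innate lymphoid genes (4 tested, median -0.21, and 0.39 without IgG 6), endocrine genes (11 tested, -0.12) and ductal genes (6 tested, 0.14, and 0.02 without IgG 6) had medians nearer 0 and acinar genes were mostly positive (29 of 30, 0.68). The part of these cells in the members' values was not tested.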

How the data were processed

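Poly(A) RNA was sequenced for 12 islet libraries. The submitters' processing notes name Trimmomatic 0.36, STAR 2.5.2b, featureCounts from Subread 1.5.2 and DESeq2, with the builds GRCm38 and mm10, and give neither their order nor their options. The sources used here name no annotation, strand setting or rule for multiply mapped reads. Antisense overlaps are therefore unresolved. The authors' deposited files are a table of whole-number counts (49315 genes) and a comparison table (13703 genes) with a normalized signal, a log2 fold change (anti-CD3 against IgG), a p-value and an adjusted p-value. Dividing the counts by a constant per library gave the deposited signal. Columns were matched to samples by group and number, although 1 carried a prefix whose meaning is not stated; unmapped columns numbered 0. Symbols and exon lengths came from GENCODE M21.

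Counts were tested in R 4.3.3 with edgeR 4.0.16 (robust quasi-likelihood F test, TMM, filterByExpr with minimum count 10 and total 15, leaving 13115 genes) and Benjamini-Hochberg adjustment, with the SE derived from fold and F. Ratios were log2 of normalized counts plus 1, tested by exact permutation and, over all genes, by limma 3.58.1. Tests were two-sided. The edgeR and limma tests were also run on simulated data. The denominator of the simulated limma ratio was constant, so the error of a varying Cd3e was not imitated. Alternatives were DESeq2 1.42.0, limma-voom, RLE factors, no filter, an acinar covariate, the replicate number as a block, libraries left out, a pseudocount of 0.1 and other denominators; Cd2 over the whole table was added after seeing the data. Few reads limit the precision: Cd3e had 7 to 36 counts per anti-CD3 library and 17 to 358 per IgG library. The members and lists were chosen with earlier results of these data known. Named genes were the members, Cd3e, the 3 genes nearest each member and, for T cell and pathway lists, the 2 tested genes of smallest p; Il7, Cd69, Ccl19 and Ccl21a, from the members' own pathways, were named after their values were seen. The acinar list includes Cpa3, a mast cell gene, which was not tested. A result is not reported here.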

Additional observations from a re-analysis of the deposited data

Results flagged for a closer look

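In 4 cases a value stood far from the other 5 libraries of its group, each time in IgG 6. Its normalized count was 622 for Satb1, where the next IgG library had 228, and 331 for Id3, where the next had 174. It was 3214 for Ccr7, where the next had 1177, and 97.7 for Slamf6, where the next had 34.4. The gap took between 0.648 and 0.678 of the range of the group, above Dixon's 95% critical value for 6 values. Of 34 sets of 6 values examined (counts of the 8 members and Cd3e, and ratios of the 8 members to Cd3e, in each group), 4 stood out. All 4 come from the same library, so the sets are not independent. Their number therefore cannot be weighed against the rate of about 1 in 20 that chance gives. The gaps of the 4 were taken on normalized counts, not on log2 values. None of the 16 sets of ratios stood out.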

How the results depend on the processing

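The edgeR comparison called 10 genes, 7 with RLE factors, 468 with DESeq2, 135 with limma-voom, 167 with no filter on low counts, 0 with the acinar score as a covariate, 1 without IgG 5 and IgG 6, and between 0 (without IgG 5, among others) and 203 (without anti-CD3 2) when 1 library was left out. No member passed in any of these fits. The sign of the log2 fold change turned with the acinar covariate for Ccr7 (0.73), S1pr1 (0.43), Satb1 (0.10) and Slamf6 (1.23), and without IgG 5 and IgG 6 for Ccr7 (0.23), S1pr1 (0.10) and Slamf6 (0.62). Slamf6 also turned with limma-voom (0.47). With 1 library left out, values ran from -0.47 to -0.090 for Tcf7, from -0.050 to 0.44 for Id3, from -0.091 to 0.33 for Klf2 and from -0.95 to 0.51 for Slamf6. The cause was not tested.

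For the ratio to Cd3e, the whole-table limma test called 4027 genes, 23 without IgG 5 and IgG 6, 0 with Cd2 in place of Cd3e, and 38 to 10399 with 1 library left out. With Cd2, the member differences were 0.27 for Ccr7, 0.88 for Id3, 0.80 for Klf2, 0.45 for S1pr1 and 0.41 for Tcf7, none of which passed, and those of Il7r and Satb1 turned to -0.016 and -0.097, in limma too. With the CD3 sum, Klf2 (1.24), S1pr1 (0.89), Tcf7 (0.86) and Il7r (0.43) no longer passed. With Ptprc, Id3 (1.19), Klf2 (1.11), S1pr1 (0.76), Tcf7 (0.72) and Il7r (0.30) no longer passed. Slamf6 with a pseudocount of 0.1 was at 2.20 (exact permutation p = 0.0584). Without IgG 5 and IgG 6, Tcf7 was at 0.88 (exact permutation p = 0.157) and Satb1 passed at 1.07 (exact permutation p = 0.0333). With 1 library left out, the difference ran from 0.84 to 1.23 for Ccr7, from 1.51 to 1.82 for Id3, from 0.61 to 0.90 for Il7r, from 1.31 to 1.84 for Klf2, from 1.02 to 1.37 for S1pr1, from 0.50 to 0.88 for Satb1, from 1.24 to 2.03 for Slamf6 and from 0.97 to 1.53 for Tcf7. It passed in all 12 cases for Id3, Klf2 and S1pr1, in 7 for Ccr7, in 5 each for Il7r and Slamf6, in 3 for Tcf7 and in 0 for Satb1. The share of all genes passing in these cases was not counted. With all 12 libraries it was 47.2%.

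The replicate numbers were not taken to pair the libraries: the correlations of same-numbered deviations from the group means were 0.06, 0.13, 0.55, -0.20, -0.29 and 0.54 for numbers 1 to 6, and in 2 of 6 pairs, 3 and 6, a library correlated best with its own number. With the replicate number as a block, edgeR called 0 genes and limma called 11463 of 13114 genes for the ratio to Cd3e, with 6 of the 8 members (all but Il7r and Satb1) past an adjusted p of 0.05, against 1 without the block. In the paired exact sign-flip permutation, Ccr7 (1.05, p = 0.0625), Slamf6 (1.69, p = 0.0625) and Il7r (0.76, p = 0.0938) no longer passed. Id3, Klf2, S1pr1 and Tcf7 were at a sign-flip p of 0.03125, the smallest that 6 pairs can give. The share of all genes passing the sign-flip test was not counted. The 115 counts of Cd3e over the anti-CD3 libraries limit what any of the ratios can show.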
